A study of Homo sapiens with 8 samples.

Results

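The zinc finger (ZNF) genes of chromosome 19 were examined for binding of RNA polymerase II (RNAPII) in MDA-MB-453, an established line of human breast cancer cells. Members were the protein-coding genes of chromosome 19 in the GENCODE annotation of GRCh37 whose symbol is ZNF followed by a number and at most one letter. This gave 246 genes out of 1436 protein-coding genes on the chromosome and 19820 in the genome, and no binding value was used to choose them. RNAPII chromatin immunoprecipitation sequencing (ChIP-seq) had been performed after 4 h with vehicle or 600 nM CDDD11-8, an inhibitor of CDK9, with 2 replicates of each treatment from separate passages of the one line. No genotype differed between the groups. The antibody recognises the repeated tail of the largest RNAPII subunit. Each of the 4 ChIP libraries has its own list of enriched regions, and the 4 inputs served the authors as background and are not analysed here.

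Most ZNF proteins of chromosome 19 carry a row of C2H2 zinc fingers, each of which contacts a few bases of DNA, and many begin with a KRAB domain. The KRAB domain recruits TRIM28 and, through it, the histone methyltransferase SETDB1, and much of what these proteins silence is transposable elements. The genes multiplied by tandem duplication, so neighbours resemble each other. CDK9 is the kinase of P-TEFb, which lets paused RNAPII leave the promoter and elongate.

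The gene models of the ZNF genes had one shape in common. Their median length was 23.1 kb with a median of 4 exons, and the last exon had a median of 2651 bp. In the canonical transcripts, the last exon held a median of 87.4% of the coding bases, and 238 of 246 genes had most of their coding sequence there. Each ZNF gene was paired with the chromosome 19 gene nearest in length whose symbol is not of a zinc finger type. In these 246 length partners the last exon had a median of 656 bp and held a median of 10.6% of the coding bases. Translation of the canonical transcripts gave a median of 13 C2H2 finger patterns per ZNF protein, with 3 or more in 243, and a KRAB-like pattern in 181. The last exon of a ZNF gene is thus, in most members, the exon that encodes the fingers.

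One sequence motif was more frequent in ZNF promoters than in other promoters, though 141 of 246 did not hold it. A promoter was read as the 250 bases before the transcription start site (TSS) and the first 50 bases of the transcript, from the GRCh37 sequence. The ETS motif CCGGAAG, searched on both strands, was found in 105 of 246 ZNF promoters (42.7%), in 11.4% of partner promoters and in 13.0% of all protein-coding promoters. The E2F motif, TTCGCGC or TTGGCGC on both strands and counted separately, was in 10.2% of ZNF promoters and 6.45% of all promoters. The 2 clusters described next each had over 20 matches, all in a single orientation. In the ZNF737 to ZNF254 cluster at 20.7 to 24.3 Mb, 22 of 29 promoters held the motif, all 22 matches lay on the strand opposite to the gene, and their median start was 19 bases before the TSS. In the ZNF577 to ZNF331 cluster at 52.4 to 54.1 Mb, 22 of 38 promoters held it, all 24 matches lay on the gene strand, and their median place was 5.5 bases after the TSS. Over all protein-coding promoters, 51.3% of 3123 matches lay on the gene strand. The orientation was noticed after the sequences were read and was given no test. An RNAPII region at the promoter in all 4 libraries was found for 70.5% of ZNF promoters with the motif and 68.1% of those without it. A match describes the letters of this window, not a bound site.

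The sequences of 6 promoters are given 5′ to 3′ on the gene strand, with matches to the ETS and E2F motifs in capitals. ZNF431 and ZNF257 stand for the cluster with opposite-strand matches, ZNF808 and ZNF611 for the cluster with gene-strand matches. ZNF256 gained a promoter region with CDDD11-8, and ZNF580 was covered from end to end in every library.
ZNF431 (chr19:21324593-21324892, plus strand): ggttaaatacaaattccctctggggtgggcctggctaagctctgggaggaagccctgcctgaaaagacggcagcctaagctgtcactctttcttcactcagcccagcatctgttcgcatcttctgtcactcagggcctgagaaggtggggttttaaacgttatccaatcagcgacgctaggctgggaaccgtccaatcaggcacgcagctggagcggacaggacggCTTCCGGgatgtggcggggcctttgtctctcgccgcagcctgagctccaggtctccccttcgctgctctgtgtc
ZNF257 (chr19:22235036-22235335, plus strand): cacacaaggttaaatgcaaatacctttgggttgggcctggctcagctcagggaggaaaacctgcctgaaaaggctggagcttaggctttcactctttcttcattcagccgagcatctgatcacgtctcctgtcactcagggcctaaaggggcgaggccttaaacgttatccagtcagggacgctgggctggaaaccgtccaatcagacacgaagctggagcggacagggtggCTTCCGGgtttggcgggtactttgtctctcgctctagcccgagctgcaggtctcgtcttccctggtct
ZNF808 (chr19:53030671-53030970, plus strand): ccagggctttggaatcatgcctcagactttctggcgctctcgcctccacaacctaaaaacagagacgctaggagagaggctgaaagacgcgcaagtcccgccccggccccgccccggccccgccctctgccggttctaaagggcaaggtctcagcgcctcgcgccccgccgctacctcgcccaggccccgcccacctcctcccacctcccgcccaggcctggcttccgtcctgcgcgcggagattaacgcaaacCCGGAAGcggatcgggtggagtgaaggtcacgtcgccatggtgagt
ZNF611 (chr19:53238258-53238557, minus strand): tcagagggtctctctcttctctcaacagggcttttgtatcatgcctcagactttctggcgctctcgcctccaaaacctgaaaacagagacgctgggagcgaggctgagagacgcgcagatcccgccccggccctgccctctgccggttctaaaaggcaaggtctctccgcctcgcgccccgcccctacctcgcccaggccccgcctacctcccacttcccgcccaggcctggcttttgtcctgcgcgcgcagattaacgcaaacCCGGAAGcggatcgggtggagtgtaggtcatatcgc
ZNF256 (chr19:58459025-58459324, minus strand): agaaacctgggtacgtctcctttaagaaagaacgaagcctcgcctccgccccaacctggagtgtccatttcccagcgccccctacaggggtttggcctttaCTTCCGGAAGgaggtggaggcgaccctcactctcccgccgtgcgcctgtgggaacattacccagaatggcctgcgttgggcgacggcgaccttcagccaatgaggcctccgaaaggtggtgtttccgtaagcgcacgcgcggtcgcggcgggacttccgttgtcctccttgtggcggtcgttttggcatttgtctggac
ZNF580 (chr19:56146132-56146431, plus strand): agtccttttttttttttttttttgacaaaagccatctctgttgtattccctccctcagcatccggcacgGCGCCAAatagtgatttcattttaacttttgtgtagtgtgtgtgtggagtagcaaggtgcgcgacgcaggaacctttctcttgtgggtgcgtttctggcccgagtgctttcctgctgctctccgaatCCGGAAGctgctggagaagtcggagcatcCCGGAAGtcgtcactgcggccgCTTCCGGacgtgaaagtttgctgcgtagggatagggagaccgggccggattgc

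The lists differed in size before any gene was considered. They held 78306 and 57493 regions in vehicle replicates 1 and 2, and 25897 and 21842 in CDDD11-8 replicates 1 and 2, and values are given in this order throughout. Per the study's methods every library had at least 60000000 paired-end reads of 150 bp, and how far each went beyond this minimum is not given in the lists. A smaller list can leave less of a gene covered. The part of list size in the differences between treatments was not tested beyond repeats with the 21842 highest-scoring regions of every list. These repeats took in the means and counts over all members, the values of named genes and the share of emptied last exons. Of the markers of this luminal type of line that are reported here, ERBB2, FOXA1, GATA3, KRT8, KRT18 and XBP1 had a promoter region in all 4 libraries and TFF3 in CDDD11-8 replicate 1 alone. ESR1, PGR, KRT5, KRT14, PTPRC and VIM had none. With 2 libraries against 2 the smallest p an exact two-sided permutation test allows is 0.33, so a gene was counted as lower or higher when both CDDD11-8 libraries lay beyond both vehicle libraries. The percent of all protein-coding genes that met the same rule is given for each measure.

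Most ZNF promoters were occupied by RNAPII with or without the inhibitor. A region overlapped the 300 bp either side of the TSS in 174, 177, 187 and 185 of 246 genes, and 170 genes had one in all 4 libraries. Vehicle libraries had a share of 71.3% ± 0.862 and CDDD11-8 libraries one of 75.6% ± 0.575 (SD, n = 2). Both CDDD11-8 libraries thus had more occupied ZNF promoters than either vehicle library. In the length partners the share was 62.2% ± 0.575 and 60.6% ± 3.45, and it was 52.0% ± 0.628 and 52.9% ± 1.41 over all protein-coding genes (SD, n = 2). For ZNF genes minus partners the difference was 9.15 percentage points ± 1.44 with vehicle and 15.0 ± 2.87 with CDDD11-8.

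A promoter region present with CDDD11-8 in both replicates and with vehicle in neither was found for 7 genes, 2.85% of the members against 1.13% of all protein-coding genes. They were ZNF136, ZNF257, ZNF331, ZNF549, ZNF416, ZNF134 and ZNF256, and 4 of them lie in the ZNF264 to ZNF446 cluster at 57.7 to 59.0 Mb. ZNF256 had the strongest of these regions, with a width of 2482 and 2362 bp and a fold enrichment over local background of 18.6 and 8.22 in the CDDD11-8 libraries. ZNF257 had the weakest in fold enrichment, at 4.28 and 3.61, with widths of 720 and 569 bp. ZNF331, an imprinted gene with several start sites, had a region at another annotated TSS in all 4 libraries. Only ZNF432 had the reverse pattern, with regions of 503 and 297 bp in the vehicle libraries and none with CDDD11-8 (0.407% of members, 0.787% of all genes). ZNF432 too had a region at another of its TSSs in all 4 libraries. When any annotated TSS of a gene counted, 6 of the 246 members were gained and 0 lost. This count was not made for all protein-coding genes, so no general rate can be given for it.

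No library had a promoter region for 58 of the 246 genes. Of these, 14 had a region at another annotated TSS in all 4 libraries, and the other 44 had none at any TSS in any library. Unoccupied promoters had fewer CpG dinucleotides. Their median ratio of observed to expected CpG was 0.625, against 0.766 in the 170 promoters occupied in all 4 libraries, and the median GC content was 58.8% and 60.7%. Finger number was similar, with a median of 13 in the 58 genes and 12 in the 170. KRAB-like patterns were found in 47 of 58 and 123 of 170.

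Promoter regions of ZNF genes were wider with CDDD11-8. Over the 170 genes the median width was 2272, 2150.5, 3720.5 and 3204.5 bp, which is 2211 bp ± 85.9 with vehicle and 3463 bp ± 365 with CDDD11-8 (SD, n = 2). The groups did not overlap. Both CDDD11-8 regions were wider than both vehicle regions in 120 of 170 genes (70.6%, against 64.4% of all protein-coding genes) and narrower in 5 (2.94%, against 9.42%). The share of wider regions was thus close to that of all protein-coding genes. It was above that of the length partners, where 72 of 140 were wider (51.4%) and 16 narrower (11.4%). ZNF regions were narrower than those of the partners in every library, where the medians were 3788, 3541, 5535.5 and 4703 bp.

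ZNF329 had one of the largest increases, from 834 and 2283 bp with vehicle to 3599 and 7062 bp with CDDD11-8. ZNF587B had the largest mean increase, from 2082 and 2324 bp to 9715 and 4027 bp. Its neighbour ZNF552, transcribed from the opposite strand, had the same 9715 bp region in CDDD11-8 replicate 1, so the pair cannot be separated in that library. ZNF101 and ZNF497 also widened in both replicates, to 9967 and 4369 bp and to 8152 and 5442 bp. The opposite pattern was clearest at ZNF724, where a region of 15236 and 13581 bp with vehicle was replaced by one of 2552 and 1850 bp. ZNF587, whose product with that of ZNF417 represses HERV-K elements, had a region of 9634 and 8265 bp with vehicle and 6076 and 5483 bp with CDDD11-8. ZNF444, ZNF428 and ZNF577 completed the 5 largest mean decreases. The values of ZNF444 overlapped, at 4139, 2109, 2193 and 1427 bp.

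**Figure D1:**
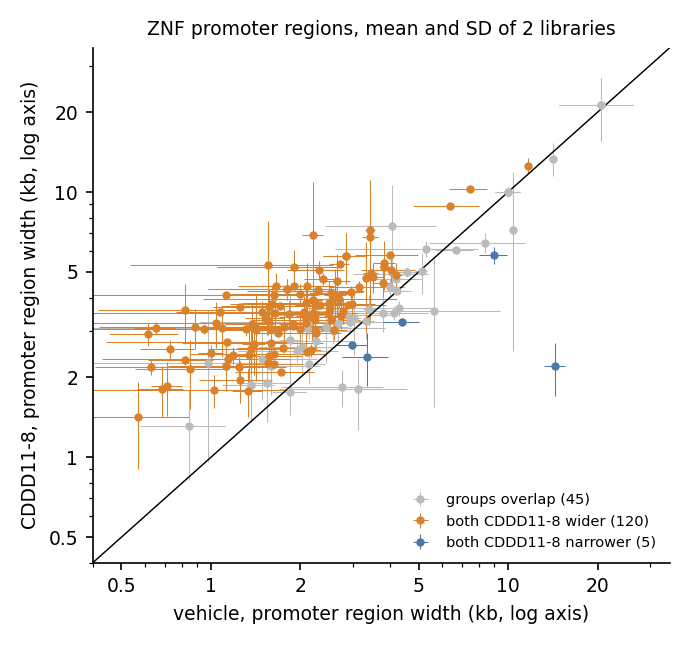
Width of the promoter region of each of the 170 ZNF genes with a promoter region in all 4 libraries, vehicle on the x axis and CDDD11-8 on the y axis, in kb on log axes. Points are means and bars the SD of 2 libraries, and the line marks equal width. Most points lie above the line, with 120 genes wider and 5 narrower in both CDDD11-8 libraries, and ZNF724 lies far below it.

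Promoter strength was compared within each list only, as the percentile of the strongest promoter fold enrichment among all genes with a promoter region in that list. The median ZNF percentile was 51.9, 29.6, 32.1 and 30.0. Vehicle replicate 1 stood apart from the other 3 libraries. Without it, CDDD11-8 minus vehicle was 1.43 percentile points, in place of -9.69 with all 4 libraries. Ranking by q-value gave a difference of 0.757 points with all 4. Of the 170 genes, 109 (64.1%) ranked higher in vehicle replicate 1 than in vehicle replicate 2, against 44.8% of all genes. Promoter GC content moved with this gap. Outside the ZNF genes, the median gap between the vehicle replicates was 6.98 points in the lowest of 4 equal classes of promoter GC content and -13.4 points in the highest, while the 77 ZNF genes in the lowest class had a median gap of 21.0 points. The part of GC content in the rank was not tested. Ranks were lower with CDDD11-8 in 40 of 170 genes (23.5%, against 22.2% of all genes) and higher in 30 (17.6%, against 24.9%). The partners had median percentiles of 45.3, 46.4, 57.9 and 56.4, so that ZNF promoters ranked 26.1 points ± 0.438 below them with CDDD11-8 (SD, n = 2). With vehicle the 2 replicates differed in direction. ZNF promoters ranked above the partners in replicate 1 (51.9 against 45.3) and below them in replicate 2 (29.6 against 46.4). The mean gap with vehicle was 5.13 points below the partners, with an SD of 16.4.

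RNAPII along the ZNF gene bodies was concentrated near the TSS, and more so with CDDD11-8. In the 170 genes occupied in all 4 libraries, the bases from 0.3 to 2 kb after the TSS were 61.5% ± 2.87 inside a region with vehicle and 82.3% ± 3.23 with CDDD11-8 (SD, n = 2). From 5 to 10 kb the coverage was 10.7%, 6.13%, 1.82% and 1.74% in the 4 libraries (n = 152 genes). From 10 to 20 kb it was 9.53%, 4.95%, 1.51% and 1.49% (n = 101 genes). Within the first 2 kb both CDDD11-8 libraries were above both vehicle libraries, and beyond 5 kb both were below. Partners had more RNAPII from 5 to 10 kb, at 32.2%, 24.0%, 16.3% and 8.91% (n = 127 genes). From 20 to 40 kb the sets overlapped, at 19.5%, 12.5%, 3.07% and 2.41% in 23 ZNF genes and 23.2%, 11.7%, 4.83% and 1.28% in 21 partners. Upstream of the TSS, from 2 to 0.3 kb before it, the ZNF coverage was 43.0% ± 2.03 and 72.8% ± 6.56.

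**Figure D2:**
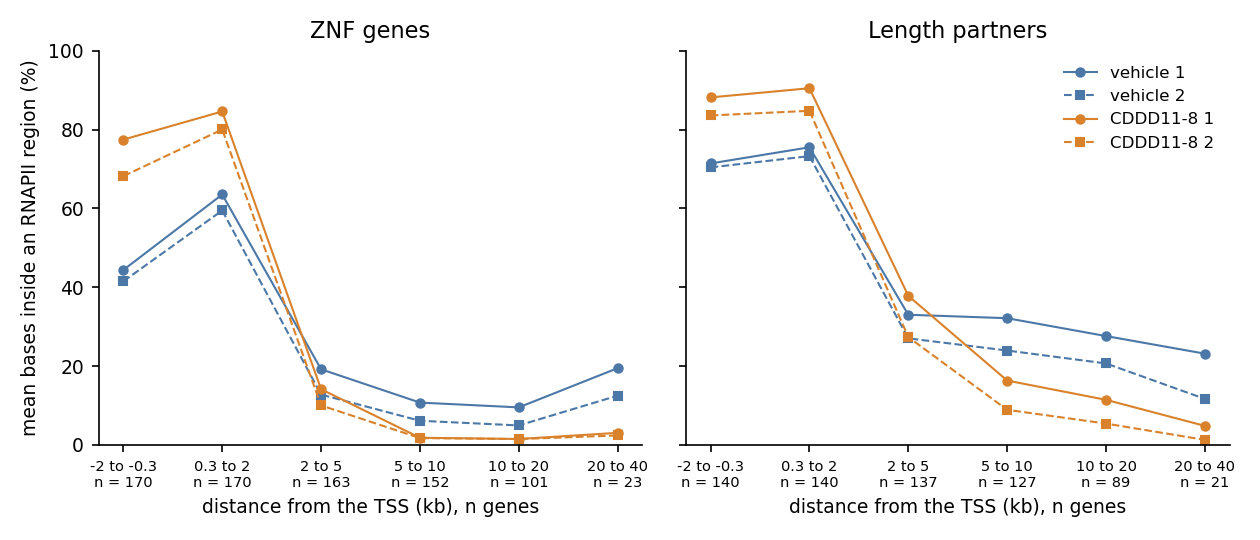
Mean percent of bases inside an RNAPII region by distance from the TSS in kb, for ZNF genes (left) and length partners (right) with a promoter region in all 4 libraries. Each line is 1 library, vehicle in blue and CDDD11-8 in orange, and n is the number of genes long enough for the bin. In ZNF genes the CDDD11-8 lines lie above the vehicle lines up to 2 kb and below 4% beyond 5 kb.

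Over whole gene bodies, from 300 bp after the TSS to the transcription end site (TES), both directions entered the average. Mean coverage of the 246 ZNF genes was 14.8%, 12.7%, 11.9% and 10.3%, against 26.0%, 22.8%, 19.2% and 13.2% in the partners. ZNF coverage was lower with CDDD11-8 in 62 genes (25.2%, against 23.0% of all protein-coding genes) and higher in 66 (26.8%, against 17.0%). The partners had 89 lower and 28 higher. Genes at 0 in all 4 libraries can meet neither rule, and they were 46 of 246 ZNF genes and 6961 of 19309 protein-coding genes. The gene body shares of all genes, here and below, therefore include more genes that could not be counted. When the gene body began 2 kb after the TSS, 75 ZNF genes were lower (30.5%, against 25.3% of all genes) and 15 higher (6.10%, against 7.96%). The direction of the mean over the whole body depended on list size. With equal numbers of regions it was 9.42%, 9.77%, 11.7% and 10.3%, higher with CDDD11-8, and 31 genes were lower (12.6%, against 12.8% of all genes) and 108 higher (43.9%, against 26.6%).

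The 5 largest decreases in gene body coverage with both replicates in the same direction were in ZNF552, ZNF557, ZNF431, ZNF714 and ZNF146. ZNF431 was 64.2% and 41.4% covered with vehicle and 4.78% and 4.37% with CDDD11-8. ZNF557 had 72.7% and 47.1% against 8.84% and 10.5%. In both genes all vehicle values were above all CDDD11-8 values. ZNF146, which encodes a protein of fingers without a KRAB domain, had 75.0% and 36.1% against 12.5% and 9.06%. The 5 largest increases were in ZNF324, ZNF256, ZNF324B, ZNF543 and ZNF416, all in the ZNF264 to ZNF446 cluster. ZNF324 had 40.2% and 82.3% with vehicle and 97.1% and 88.8% with CDDD11-8. ZNF324B had 8.91% and 14.4% against 36.5% and 28.2%. With the gene body from 2 kb after the TSS, the increase was 28.7 points in ZNF324 in place of 31.7, 5.40 in place of 20.7 in ZNF324B and 5.87 in place of 15.0 in ZNF543, and it was 0 in ZNF256 and ZNF416.

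Last exon coverage of ZNF genes was lower with CDDD11-8, as it was over all protein-coding genes. It was measured in the 243 genes whose last exon starts at least 2 kb after the TSS. Mean coverage was 13.0%, 13.3%, 5.12% and 4.00%, or 13.2% ± 0.26 with vehicle and 4.56% ± 0.789 with CDDD11-8 (SD, n = 2). Over all protein-coding genes the mean was 21.5% ± 1.37 with vehicle and 10.7% ± 2.73 with CDDD11-8 (SD, n = 2). The number of ZNF genes with any RNAPII region in the last exon was 75, 66, 21 and 18. Coverage was lower with CDDD11-8 in 45 genes (18.5%, against 16.0% of all protein-coding genes) and higher in 1 (0.412%, against 1.18%). With equal numbers of regions it was lower in 17 genes (6.996%, against 9.17% of all genes). The ZNF mean was then 8.59% with vehicle and 4.47% with CDDD11-8, and the mean of all genes 17.5% and 10.5%. With regions under 5 on the −log10 q-value scale dropped, coverage was lower in 25 ZNF genes (10.3%, against 12.1%). In 155 genes the last exon was empty in all 4 libraries. Partners had more coverage throughout, at 37.3%, 36.5%, 29.3% and 17.5%, with 42 of 245 genes lower and 7 higher.

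Of the 243 genes, 56 had a covered last exon in both vehicle libraries. In 39 of these (69.6%) the last exon was empty in both CDDD11-8 libraries, against 46.1% of the 4612 such genes in the genome and 29.9% of the 97 such partners. In 14 (25.0%) it was covered in both CDDD11-8 libraries, against 40.5% in the genome. With equal numbers of regions the empty share was 14 of 28 ZNF genes, 23.2% of partners and 33.6% of all such genes. Genes were chosen here by their coverage with vehicle, which favours a fall with CDDD11-8 in every set. The sets also differed in promoter rank. The part of this choice and of promoter rank in these shares was not tested. Among genes with a promoter percentile of 33.3 to 66.7, last exon coverage with vehicle was 18.9% ± 0.66 in 76 ZNF genes and 49.5% ± 2.08 in 63 partners (SD, n = 2).

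The vehicle regions in ZNF last exons were mostly separate from promoters. In vehicle replicates 1 and 2, 63 of 75 and 53 of 66 genes had last exon regions that contained no promoter, against 8 of 21 and 8 of 18 with CDDD11-8. With vehicle the mean coverage was higher at the 3′ end than in the middle of the body, though in vehicle replicate 1 more genes had a last exon below the middle (75) than above it (58), and in replicate 2 the numbers were 50 and 55. From 2 kb to the last exon it was 8.33% ± 2.24. In the last exon of the same genes it was 12.3% ± 0.0159, and in the 3 kb after the TES it was 18.6% ± 2.93. With CDDD11-8 the corresponding values were 4.92% ± 0.665, 3.83% ± 0.764 and 7.23% ± 1.56 (SD, n = 2 throughout).

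ZNF714 in the ZNF737 to ZNF254 cluster and ZNF552 shared the largest change. The last exon of ZNF714 (chr19:21307764-21308073, plus strand) was 100% covered in both vehicle libraries and 0% in both CDDD11-8 libraries, while its promoter region stayed at 4822, 3545, 5096 and 4276 bp. The canonical transcript of ZNF714 has a last exon of only 310 bp and encodes 110 amino acids with 0 finger patterns, unlike most members. ZNF431, in the same cluster, has a last exon of 13431 bp that was 82.0% and 80.2% covered with vehicle and 0% with CDDD11-8. ZNF557 (89.9% and 89.6%) and ZNF121 (73.4% and 89.3%) were likewise at 0% in both CDDD11-8 libraries. ZNF552 was 100% covered with vehicle and 0% with CDDD11-8 in the 224 bp last exon of its longest transcript, and 58.9% and 31.8% against 0% in the 2022 bp last exon of its canonical transcript. The one gene with higher coverage, ZNF765, had 0%, 0%, 3.90% and 4.04%, and 0% in every library in its canonical transcript.

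The 14 genes with last exon coverage in all 4 libraries were shorter than the 39 that were emptied, with a median length of 11.5 kb against 24.2 kb. They also had close neighbours more often, since 12 of 14 lay within 1 kb of another gene, against 12 of 39. A KRAB-like pattern was found in 6 of 14 and in 28 of 39. With vehicle the last exons of the 14 genes were already more covered, at a mean of 73.4% and 84.6%, against 41.7% and 41.4% in the 39. ZNF580 and its neighbour ZNF581 lay inside a single region in each library and were 100% covered throughout. ZNF324 had 54.1%, 99.5%, 98.9% and 92.9%. How far the coverage of these last exons belonged to neighbouring genes was not tested.

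**Figure D3:**
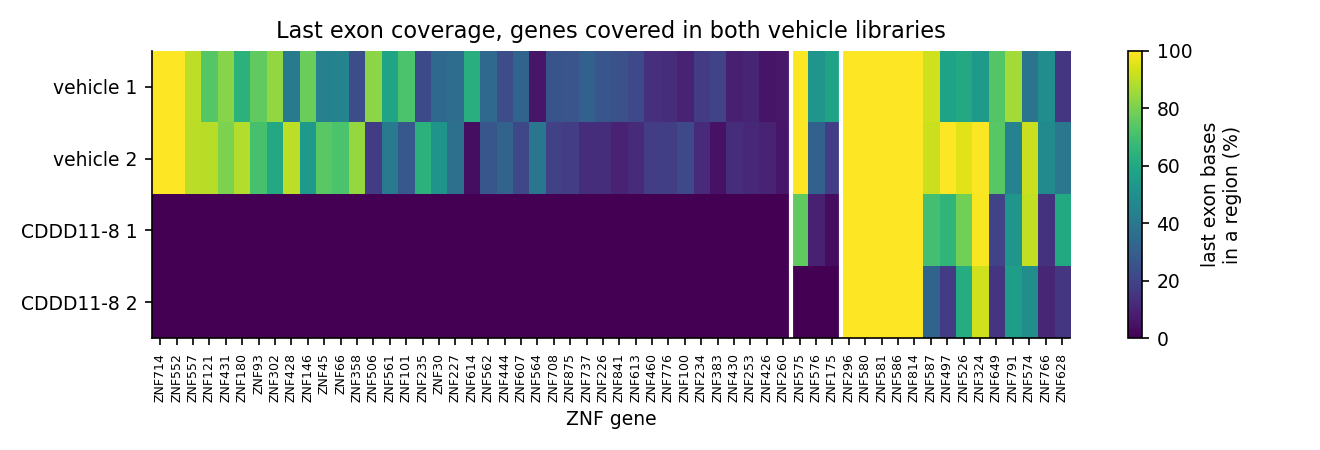
Last exon coverage in percent of bases, by colour, for the 56 ZNF genes covered in both vehicle libraries, with 1 row per library. White lines part the 39 genes at 0 in both CDDD11-8 libraries (left), 3 genes covered in 1 of them and the 14 genes covered in both (right). By this grouping the left block is empty in both lower rows.

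Along the chromosome the genes formed 12 clusters of 5 or more, where a new cluster began at a gap of over 250 kb. These held 229 genes, from 5 to 43 each, and 17 genes lay outside them. The clusters differed in how much of their last exons was covered with vehicle and in what CDDD11-8 left. In 5 clusters, those from ZNF554 to ZNF77, ZNF317 to ZNF846, ZNF101 to ZNF486, ZNF737 to ZNF254 and ZNF302 to ZNF792, no last exon was covered in either CDDD11-8 library. In the same order, the 2 vehicle libraries had 2 and 0 of 5 genes covered, 4 and 5 of 11, 5 and 4 of 8, 9 and 8 of 29, and 2 and 2 of 5.

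The ZNF737 to ZNF254 cluster on the short arm next to the centromere (29 genes, 3.59 Mb) had 9 and 8 genes with a covered last exon with vehicle and 0 with CDDD11-8. Its mean last exon coverage was 11.8% ± 0.744 with vehicle. Mean gene body coverage was 11.98% ± 3.07 and 2.98% ± 0.307, lower in 15 of 29 genes and higher in 2, where 23.0% and 17.0% of all genes met these rules. Its median promoter percentile showed the largest gap between the vehicle replicates of the 12 clusters, 78.9 against 38.9, followed by 38.7 and 37.0 with CDDD11-8.

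The neighbouring ZNF101 to ZNF486 cluster at 19.8 to 20.3 Mb (8 genes) had last exon coverage of 34.0% and 15.9% with vehicle. The ZNF575 to ZNF180 cluster at 44.0 to 45.0 Mb (23 genes) had 17.9%, 22.2%, 3.68% and 0%, with 9 genes lower, where 16.0% of all genes were lower. In the ZNF653 to ZNF791 cluster at 11.6 to 12.7 Mb, 12 of 25 genes had no promoter region in any library, and last exon coverage with vehicle was 4.36% and 3.36%.

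The ZNF264 to ZNF446 cluster near the long-arm telomere (43 genes) had more genes with higher than with lower gene body coverage, 24 against 7, where 17.0% of all genes were higher and 23.0% lower. These gene bodies began 300 bp after the TSS. From 2 kb after it, only 15 of all 246 ZNF genes were higher (6.10%, against 7.96% of all genes), and this was not counted by cluster. Promoter percentile was higher in 13 of 28 genes and lower in 5, where 24.9% of all genes were higher and 22.2% lower. Last exon coverage was 13.6%, 16.9%, 12.2% and 10.3%, with 7 and 6 genes still covered with CDDD11-8. Its genes had a median length of 12.8 kb, against 38.3 kb in the ZNF737 to ZNF254 cluster, and 19 other protein-coding genes lay in its span, against 2.

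The ZNF628 to ZNF581 cluster at 56.0 to 56.2 Mb (7 genes, median length 7.80 kb) stood apart in level. Gene body coverage was 65.7%, 76.0%, 73.9% and 64.0%, and all 7 promoters were occupied in all 4 libraries. Its proteins had a median of 6 fingers and none had a KRAB-like pattern. Vehicle and CDDD11-8 values overlapped for both measures in this cluster.

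**Figure D4:**
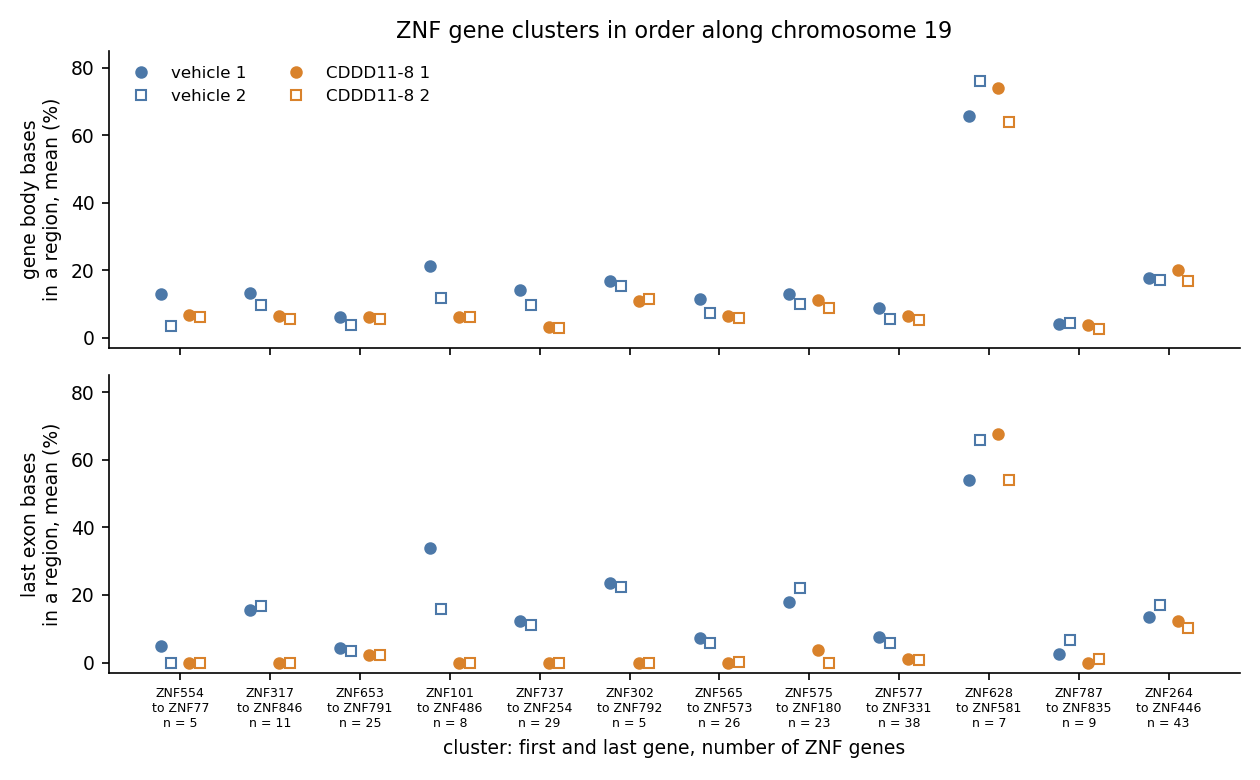
Mean gene body coverage (top) and mean last exon coverage (bottom), in percent of bases, for the 12 ZNF clusters in order along the chromosome. Each marker is 1 library, vehicle in blue and CDDD11-8 in orange, with filled circles for replicate 1 and open squares for replicate 2. Last exon values with CDDD11-8 lie at or near 0 in most clusters, and the ZNF628 to ZNF581 cluster lies above 50% in every library.

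Members with known roles were described by name whatever their values. ZNF91 represses SVA elements and ZNF93 represses LINE-1 elements. The last exon of ZNF93, which is 2394 bp long, was covered at 75.7%, 71.0%, 0% and 0%, while its promoter region was 7348, 5962, 5880 and 6166 bp wide. ZNF91 was 27.5% and 21.2% covered over its gene body with vehicle and 3.66% and 3.51% with CDDD11-8. Its longest transcript ends in a 306 bp exon that was empty in all 4 libraries, and the 5030 bp last exon of its canonical transcript had 15.8%, 16.7%, 0% and 0%. In both canonical last exons the only covered libraries were those of vehicle.

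ZNF274, which brings SETDB1 to the 3′ ends of zinc finger genes, had 46.1% and 17.5% gene body coverage with vehicle and 12.3% and 11.97% with CDDD11-8. Its last exon was covered in vehicle replicate 1 alone, at 39.3%. ZNF175 had last exon values of 57.9%, 18.5%, 3.26% and 0%. ZNF587 differed from these, with 92.8% and 91.9% with vehicle and 70.2% and 32.3% with CDDD11-8.

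ZNF350, a partner of BRCA1 in repression, and ZNF224, a repressor of aldolase A, had no region in the last exon in any library. Promoter regions of ZNF350 were 1289, 855, 3568 and 3472 bp wide, and those of ZNF224 were 1602, 1020, 2922 and 3149 bp. In both genes the CDDD11-8 values lay above the vehicle values. The gene body coverage of ZNF224 was 3.88%, 3.95%, 8.88% and 8.76%, so it too was higher, but the difference was 0 from 2 kb after the TSS. ZNF675, ZNF808, ZNF611 and ZNF85 had a promoter region in all 4 libraries, and none had a last exon region in a CDDD11-8 library. ZNF417 and ZNF420 had no region at the TSS of their longest transcripts and one at another TSS in all 4 libraries. ZNF43 had one at its longest-transcript TSS in CDDD11-8 replicate 1 alone. When any annotated TSS counted, ZNF43 too had a region in all 4 libraries.

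The gene with the highest mean promoter percentile in each cluster was ZNF77, ZNF317, ZNF627, ZNF93, ZNF714, ZNF302, ZNF146, ZNF45, ZNF83, ZNF580, ZNF787 and ZNF837, in chromosome order. ZNF837 reached percentiles of 81.1, 91.6, 95.5 and 95.0, and no last exon region was found there. ZNF45 had the 98.6th percentile in vehicle replicate 1 and 74.3, 41.8 and 57.1 in the other 3, and its last exon was covered at 43.7%, 74.4%, 0% and 0%. A high promoter rank therefore went with covered last exons in some leaders and not in others.

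The proteins through which KRAB domains silence were examined as a list of 24 genes, among them TRIM28, SETDB1, the HP1 genes CBX1, CBX3 and CBX5, and the HUSH genes TASOR, MPHOSPH8 and PPHLN1. A promoter region was found in all 4 libraries for 23. Of the 24, gene body coverage was lower with CDDD11-8 in 14 and higher in 3, where 23.0% and 17.0% of all genes met these rules. Last exon coverage was lower in 7, against 16.0% of all genes, and higher in 0. Promoter regions were wider in 17 and narrower in 1 of 23, and 64.4% of all genes were wider. TRIM28, the corepressor itself, was covered from end to end in every library, whereas CBX1 had 74.7% and 35.6% gene body coverage with vehicle and 9.86% and 7.80% with CDDD11-8. The 16 other zinc finger genes of chromosome 19, with ZFP, ZSCAN, ZIK, ZIM or PEG3 symbols, were examined beside the members. ZFP36, which encodes an RNA-binding protein, had 100% of its gene body covered in every library. A promoter region was found for 5 of the 16 in all 4 libraries, ZFP36 among them, and 14 of 15 measured last exons were empty in all 4.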

How the data were processed

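RNAPII ChIP-seq libraries were from MDA-MB-453 cells after vehicle or CDDD11-8. Paired reads were aligned by the authors to GRCh37 (hg19) with Bowtie 2, and they called regions in each ChIP library with MACS2 against a paired input. The deposited fold enrichment is the ratio of the signal at a summit to the local background. The deposited q-values are on the −log10 scale, with a minimum of 2.00 in each list, and region lengths are in bp. Replicates were not pooled, and the lists carry no read totals, so no precision from depth can be given. A deeper library can yield more and wider regions.

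Summits of one region were joined. Genes came from GENCODE release 44 mapped to GRCh37, each as its longest transcript. Promoters were 300 bp either side of the TSS, as in the study's enrichment test, and gene bodies ran from 300 bp after the TSS to the TES. The study ran gene bodies to 3 kb after the TES and left out genes near others, which was an alternative here. Motifs, finger patterns and GC content were read from GRCh37. 100-mers found more than once on chromosome 19 made up a mean of 0.735% of ZNF last exons and 0.534% of ZNF promoters. Copies on other chromosomes were not counted. Some named genes had more, with 30.3% of the promoter in ZNF552 and 27.9% in ZNF417, and 14.5% of the gene body in ZNF587B and 11.5% in ZNF587. How reads of near-identical copies were placed was not tested.

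Replicate numbers of vehicle and CDDD11-8 are not stated to mark a shared passage and were not used as pairs. Summaries over genes carry no p-value. Named genes were members with known roles, the 5 largest changes in each direction in last exon coverage, gene body coverage and promoter width with the same sign in both same-numbered libraries, promoters gained or lost in both libraries, and the gene with the highest mean promoter percentile in each cluster. The members and lists were chosen with earlier results of these data known. The measures were tested on simulated regions. Scripts ran in Python 3.11.15 with pandas 2.3.3 and numpy 2.4.6, and figures were drawn with matplotlib 3.10.9. Differential enrichment was not repeated, since it needs read counts. One marker of the cell line is not reported here.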

Additional observations from a re-analysis of the deposited data

How the results depend on the processing

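All differences are CDDD11-8 minus vehicle. With equal numbers of regions, mean gene body coverage of ZNF genes reversed to 1.36 percentage points from -2.64, mean last exon coverage differed by -4.13 in place of -8.60, and the promoter share by 11.8 in place of 4.27. Genes with lower gene body coverage then numbered 31, those with higher coverage 108, and those with lower last exon coverage 17. When regions under 5 on the −log10 q-value scale were dropped, the promoter share differed by 6.50 points, gene body coverage by -0.901 and last exon coverage by -6.68, with 25 genes lower in the last exon. With the gene body from 2 kb after the TSS its difference was -4.84 with 15 genes higher, and with distant genes and a body to 3 kb after the TES 31 genes were higher. The 2 kb up to the TES gave -9.62, and a summit inside the promoter gave a promoter share difference of 6.91. Against all other genes of similar length in place of the partners, the ZNF promoter share was 17.2 points higher in place of 12.1. Leaving out each library in turn gave 65 to 95 genes with lower gene body coverage, the highest without vehicle replicate 2. ZNF350 changed sign in gene body coverage, to -0.0244 from 2 kb after the TSS. Of 98 values of named genes, 28 moved by more than the replicate spread with equal numbers of regions and 13 with the q-value filter. With the body from 2 kb, 12 of 49 gene body values did so, ZNF350 included. Leaving out 1 of 2 libraries cannot move a group mean by more than the replicate SD, so no such count is given. The last exon difference of ZNF324 was 19.1 with all libraries and -3.61 without vehicle replicate 1. With equal numbers of regions the gene body difference was -12.04 in place of -44.8 in ZNF146 and -3.48 in place of -20.7 in ZNF91, and the last exon difference was -20.9 in place of -59.0 in ZNF45 and 0 in place of -65.7 in ZNF428. The canonical transcript, merging of regions within 1 kb and a cluster gap of 500 kb (10 clusters) moved no result by more than the replicate spread or 1.5 times. Merging came close to that limit, with 81 genes with wider promoters in place of 120. The share of all genes that were wider after merging was not counted. One alternative, any annotated TSS, was chosen after seeing the data, and its promoter share difference was 3.86 points.

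As a replicate block, genes were counted that moved the same way in both same-numbered pairs. This gave 70 genes with lower and 76 with higher gene body coverage (of 246), 45 with lower last exon coverage (of 243) and 137 with wider promoters (of 170). No count changed by over 1.5 times. The share of all protein-coding genes that met this looser rule was not counted, so these counts cannot be set against a general rate. The smallest p that 2 pairs allow is 0.5.

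The limits are those of lists of regions. Coverage records whether enrichment passed a threshold, not how much RNAPII was present, and the depth of each library above the stated minimum and its scaling are unknown. The longest transcript can miss the TSS or last exon in use, and regions of close neighbours overlap, with 8 or 9 promoter regions per library shared by a pair of members.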
